A study of Mus musculus with 7 samples.

Results

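A set of 10 genes that mark long-term haematopoietic stem cells (LT-HSCs) in sorting and purity checks was followed through all 7 libraries of the series, out of 53458 genes with at least 1 transcript in the tables. They were chosen because their proteins served in the sort or because they mark HSCs in reporter mice: Slamf1, Kit and Ly6a (selected for), Cd48 and Flt3 (selected against), and Procr, Esam, Cd34, Fgd5 and Ctnnal1 (not used in the sort). LT-HSCs are the rare marrow cells that rebuild blood for life. The cells came from aged C57/BL6 mice, of which 4 were Srp72+/+ (wild type, WT) and 3 were Srp72+/-. Each mouse gave 1 library, and the p-values measure the spread between these libraries. Srp72 encodes a subunit of the signal recognition particle, and neither its altered part nor the exact ages of the mice were stated in the labels. The sort, by its protocol, was set to take cells positive for Sca1, cKit and CD150 that were negative for CD48 and Flt3 and lacked the lineage antigens B220, Ter119, Gr1, CD3 and Mac1.

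Mouse HSCs are commonly isolated by a combination of proteins. Kit is the receptor for stem cell factor, and Ly6a encodes Sca1, a lipid-anchored protein of the Ly6 family; together they define the stem and progenitor compartment of lineage-negative marrow. Within it, CD150 (Slamf1) and CD48 (Cd48), which belong to the same family of SLAM receptors, separate HSCs from multipotent progenitors, and Flt3, a receptor tyrosine kinase, appears as cells leave the HSC state towards lymphoid and myeloid progenitors. Procr (the endothelial protein C receptor), Esam (an endothelial adhesion molecule), Fgd5 (an exchange factor for Cdc42) and Ctnnal1 (alpha-catulin) are used as further HSC markers or reporters, and Cd34 is low on the most quiescent adult mouse HSCs.

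The libraries held between 18054322 and 35247472 estimated reads, and the 10 markers together took between 0.0173% and 0.112% of them. Levels are given as CPM, the usual depth-scaled read count, after scaling the libraries to each other, and comparisons between genes as TPM, which also corrects for transcript length. The library labelled WT 2 went against its label: 8 of the 10 markers were lower there than in each of the other 6 libraries, Cd48 was higher than in each of them, and Flt3 lay within their range. The check of the genotype labels was incomplete, since Srp72 measured 88.4 to 136.6 CPM in WT and 45.7, 71.9 and 109.8 CPM in the Srp72+/- libraries, which overlapped. As the samples are bulk RNA, a lower marker level from fewer marker-positive cells and from less RNA per cell cannot be told apart.

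Slamf1 and Cd48 are neighbours on chromosome 1, on the plus strand, with 61868 bases between them, and the sort asked for the presence of one protein and the absence of the other. Cd48 lies at chr1:171682009-171705258 and Slamf1 at chr1:171767127-171801184 (GRCm38). The 250 bases before each start (RefSeq, GRCm38.p6, plus strand, chr1:171681742-171681991 for Cd48 and chr1:171766882-171767131 for Slamf1) are shown because these neighbouring genes are the pair that the sort selects in opposite directions. Capitals mark a RUNX motif.
Cd48: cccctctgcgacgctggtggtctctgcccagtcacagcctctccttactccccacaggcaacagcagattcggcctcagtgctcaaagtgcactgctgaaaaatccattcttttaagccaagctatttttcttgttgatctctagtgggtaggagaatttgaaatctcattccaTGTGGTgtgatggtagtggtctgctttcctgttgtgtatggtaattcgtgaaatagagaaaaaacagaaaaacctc
Slamf1: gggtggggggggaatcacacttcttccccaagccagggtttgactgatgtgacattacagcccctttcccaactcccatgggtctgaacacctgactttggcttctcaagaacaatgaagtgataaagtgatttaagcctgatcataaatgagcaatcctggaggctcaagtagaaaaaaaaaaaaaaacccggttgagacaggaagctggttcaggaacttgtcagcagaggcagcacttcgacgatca
Both strands were searched for 3 motifs, and no match overlapped another. The letters used were TGTGGT for factors of the RUNX family, which act throughout blood formation. For those of the ETS family they were GGAAGT. For the GATA family, active in stem and erythroid cells, they were AGATAA. The RUNX motif stood once, 76 bases before the start of Cd48, and 14.1% of the 32851 windows of this length hold it. Of the 8 markers with an entry in the table, 1 held the RUNX motif, 1 (Flt3) the ETS motif, which 19.7% of all windows hold, and 0 the GATA motif, which 9.99% hold. A match describes the letters of a window, and a window with none says only that the letters are not in it.

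Kit had the most reads of the 10 markers, between 1554 and 19731 in a library. It measured 776, 99.4, 526 and 548 CPM in WT 1 to WT 4. In Srp72+/- 1 to Srp72+/- 3 it measured 417, 578 and 598 CPM. Every library but WT 2 thus lay at 417 CPM or above, and the genotypes overlapped. By genotype, the mean levels were WT 487 ± 282 CPM (SD, n = 4) and Srp72+/- 531 ± 99.1 CPM (SD, n = 3), a log2 fold change of 0.12 ± 0.56 (SE, edgeR quasi-likelihood test, adjusted p = 0.9998).

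Ly6a, which encodes Sca1, measured 69.5, 15.5, 76.0 and 82.5 CPM in WT 1 to WT 4. It measured 19.96, 49.4 and 89.2 CPM in the Srp72+/- libraries. Srp72+/- 3 had the highest level of all, Srp72+/- 1 was close to WT 2, and the genotypes overlapped. The log2 fold change was -0.20 ± 0.63 (SE, edgeR, adjusted p = 0.9998). Ly6a has close copies next to it on chromosome 15, and how its reads were shared with them is uncertain. One of them, Ly6c2, carried on monocytes and neutrophils, ran from 0.953 CPM in WT 1 to 551 CPM in WT 2.

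Slamf1, which encodes CD150, measured 73.0, 4.67, 61.2 and 62.3 CPM in WT 1 to WT 4. It measured 31.3, 70.9 and 49.9 CPM in the Srp72+/- libraries. WT 1, WT 3 and WT 4 lay close together at 65.5 ± 6.49 CPM (SD, n = 3), Srp72+/- 2 lay among them, and Srp72+/- 1 and Srp72+/- 3 lay below them. With WT 2 included WT averaged 50.3 ± 30.9 CPM (SD, n = 4) and Srp72+/- averaged 50.7 ± 19.8 CPM (SD, n = 3). The log2 fold change was 0.01 ± 0.73 (SE, edgeR, adjusted p = 0.9998).

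With WT 2 set aside, the negative markers had the widest ranges of the 10. Cd48, the glycolipid-anchored SLAM receptor of progenitors and most mature leukocytes, measured 0.504, 44.8, 7.63 and 3.64 CPM in WT 1 to WT 4, from 9, 701, 159 and 81 reads. It measured 25.9, 5.09 and 2.27 CPM in the Srp72+/- libraries. WT 2 and Srp72+/- 1 stood above the rest, and even without WT 2 the highest library was 51.3-fold above the lowest. A gene model on the same strand, Gm37010, lies within or across the span of Cd48 and held between 113.6 and 229.3 reads in a library. Whether their exons overlap was not examined, so an effect of split reads on the low Cd48 values was not tested. The log2 fold change was -0.35 ± 1.31 (SE, edgeR, adjusted p = 0.9998).

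Flt3, at chr5:147330741-147400489 on the minus strand, measured 3.19, 6.84, 5.61 and 4.54 CPM in WT 1 to WT 4. It measured 13.3, 4.51 and 1.55 CPM in the Srp72+/- libraries. The extremes were both Srp72+/- libraries, so the genotypes overlapped, with a log2 fold change of 0.35 ± 0.69 (SE, edgeR, adjusted p = 0.9998). The coding transcript held 10.7% of the Flt3 reads in Srp72+/- 3 and between 52.7% and 84.1% in the other libraries. The remainder was assigned to a noncoding transcript of 10 exons, and the lowest library rested on 51 reads in all.

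Procr, at chr2:155751117-155755471, measured 19.4, 0.0639, 43.9 and 40.1 CPM in WT 1 to WT 4. The value of WT 2 rested on 1 read. It measured 9.002, 25.8 and 9.34 CPM in the Srp72+/- libraries, of which Srp72+/- 2 lay above WT 1. Its log2 fold change of -0.82 ± 1.22 (SE), was the lowest fitted value among the 10 markers and did not pass the test (edgeR, adjusted p = 0.9998).

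Esam, at chr9:37528078-37538319, measured 31.8, 0.192, 38.1 and 50.2 CPM in WT 1 to WT 4, where WT 2 held 3 reads. It measured 26.5, 23.2 and 32.4 CPM in the Srp72+/- libraries, a narrow range in which only Srp72+/- 3 lay above WT 1. Fgd5, at chr6:91978878-92076004, measured 64.8, 0.639, 56.9 and 106 CPM in WT 1 to WT 4, where WT 2 held 10 reads. It measured 31.6, 61.0 and 41.2 CPM in the Srp72+/- libraries, and Srp72+/- 2 lay above WT 3. The spans of Flt3, Cd34 and Fgd5 each overlap that of an antisense gene (Gm26597, Gm16897 and 4930466I24Rik). Where exons overlap, reads cannot be told apart without strand information, and exon overlap was not examined. A gene model on the same strand that overlaps the span of Fgd5, Gm44095, held 12.8 reads in WT 2, where Fgd5 held 10. It held 17.3 to 97.2 reads elsewhere. Whether reads were split between Gm44095 and Fgd5 was not tested. The log2 fold changes were -0.14 for Esam (standard error 1.07) and -0.36 for Fgd5 (standard error 1.06), and neither passed the test (edgeR, adjusted p = 0.9998 for each).

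Ctnnal1, at chr4:56810935-56865188, measured 38.9, 2.88, 25.4 and 37.3 CPM in WT 1 to WT 4. The Srp72+/- libraries lay close together at 30.02, 30.7 and 33.4 CPM, inside the range of WT. Its log2 fold change was 0.26 ± 0.68 (SE, edgeR, adjusted p = 0.9998). Cd34, which encodes a sialomucin of progenitors and endothelium at chr1:194938819-194961279, had the narrowest range of the 10 markers over the 7 libraries. It measured 55.8, 29.3, 68.6 and 36.0 CPM in WT 1 to WT 4, and the Srp72+/- libraries measured 35.2, 37.9 and 47.0 CPM. Its log2 fold change was -0.24 ± 0.33 (SE, edgeR, adjusted p = 0.9998).

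**Figure D1:**
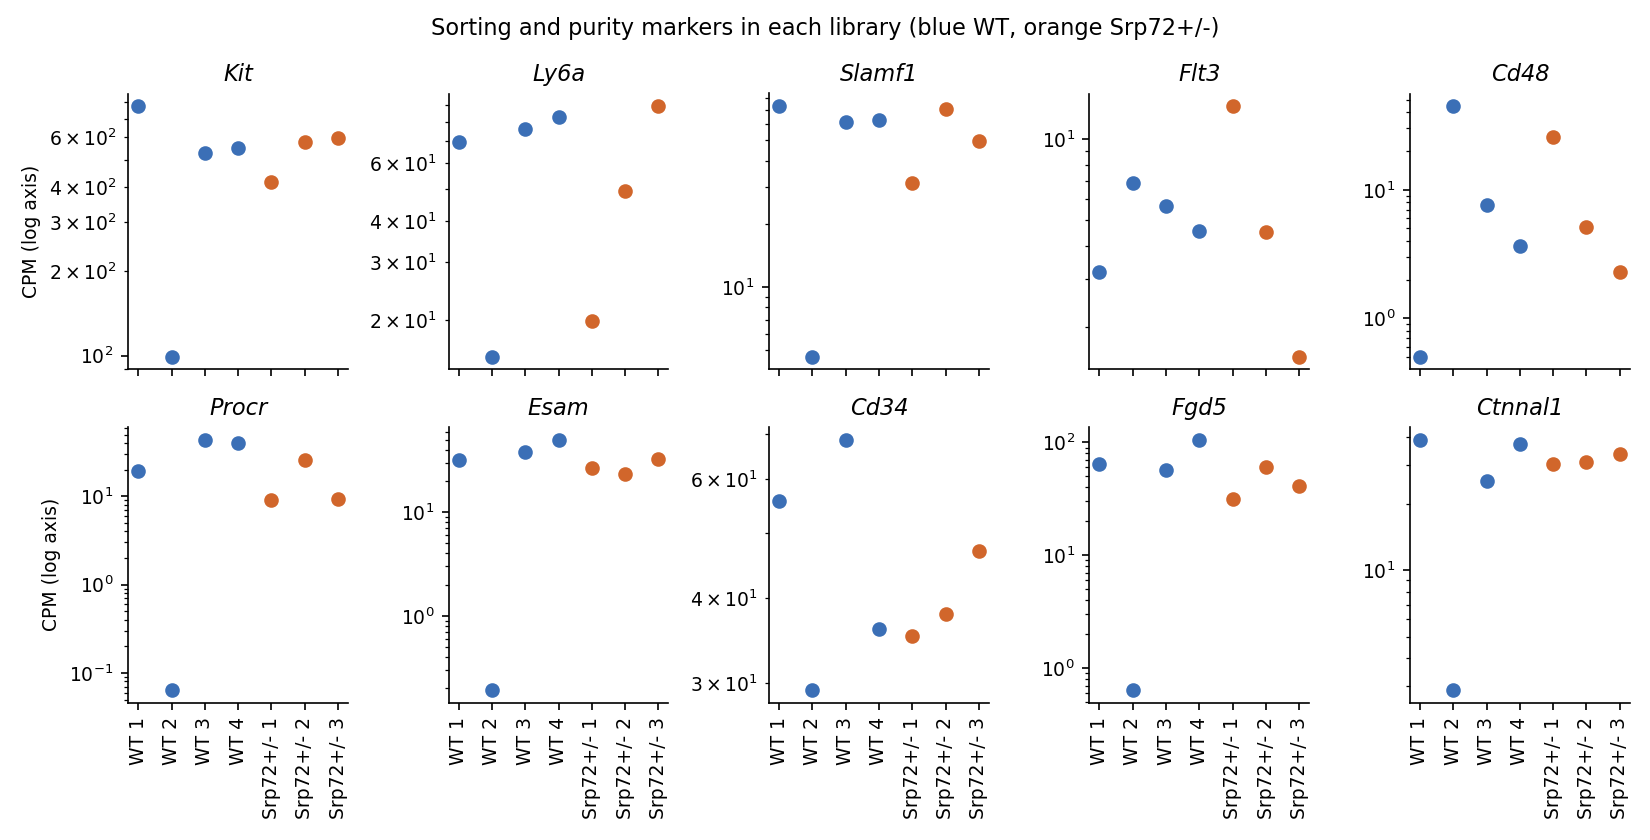
CPM of the 10 markers (log axes, 1 panel per gene) in the 4 WT libraries (blue) and the 3 Srp72+/- libraries (orange), 1 point per library. WT 2 is the lowest point of 8 panels, for Procr at 0.0639 CPM, and the highest point of the Cd48 panel at 44.8 CPM.

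The markers were not reduced in WT 2 by a common factor. Relative to WT 2, the mean of the other 6 libraries was 1.60-fold for Cd34, 4.15-fold for Ly6a, 5.77-fold for Kit, 11.3-fold for Ctnnal1 and 12.4-fold for Slamf1. It was 94.2-fold for Fgd5 (95% Poisson interval on the WT 2 reads 51.2 to 196), 176-fold for Esam (60.1 to 852) and 385-fold for Procr (69.0 to 15191). The genes with the smallest ratios, Cd34, Ly6a and Kit, are also carried by progenitors. Slamf1 and Ctnnal1, used as HSC markers as are Fgd5, Esam and Procr, had ratios much nearer to that of Kit. The ratios of Fgd5, Esam and Procr rested on 10, 3 and 1 reads in WT 2. What sets the order of the ratios was not tested. The intervals cover counting error only, since without molecular identifiers 2 reads can come from 1 molecule. The interval of Procr lay above those of Ly6a and Kit, whose upper bounds were 4.72 and 6.07. The opposite was seen for Cd48, at 5.97 times the mean of the other libraries, and Flt3 was 1.26 times their mean and lay inside their range. These ratios describe 1 library and carry no test.

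**Figure D2:**
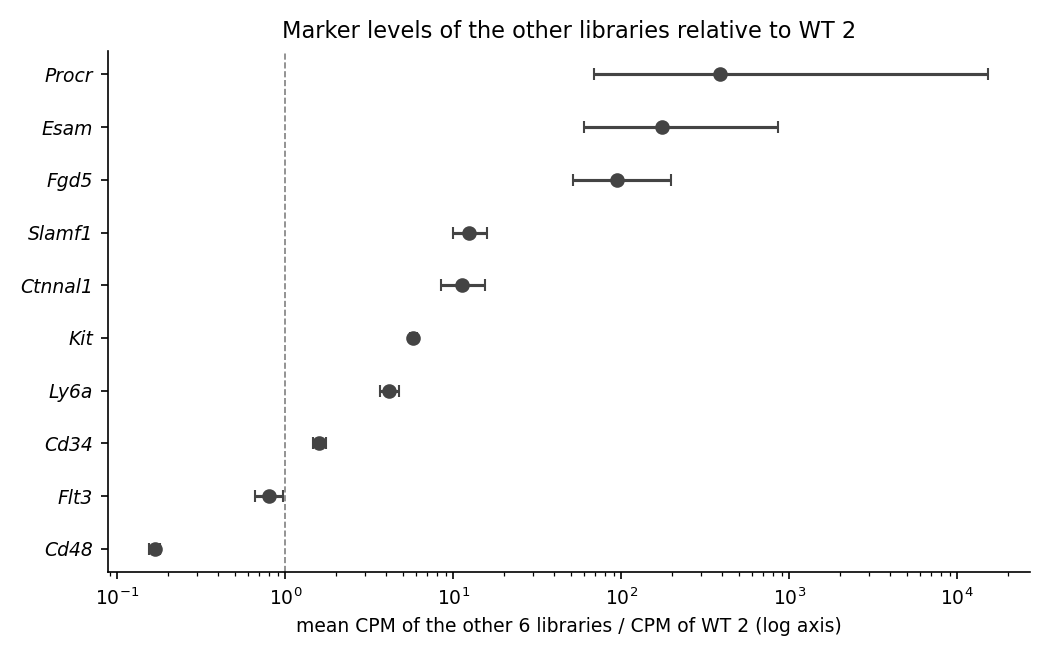
Mean CPM of the other 6 libraries divided by the CPM of WT 2 for each marker (log axis), with bars for the 95% Poisson interval on the WT 2 reads. The points run from 0.167 for Cd48 to 385 for Procr, and the dashed line marks equal levels.

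Srp72+/- 1 was the next library in this direction. Among the 6 libraries other than WT 2 it had the lowest level of 6 markers (Procr, Fgd5, Slamf1, Kit, Ly6a and Cd34) and the highest level of both negative markers, Cd48 and Flt3. Its Slamf1 level of 31.3 CPM was still above that of WT 2, 4.67 CPM, and its Esam and Ctnnal1 levels, 26.5 and 30.02 CPM, lay inside the range of the remaining libraries.

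The ratio of Slamf1 to Cd48 within a library does not depend on the scaling between libraries. As log2 of TPM with 0.1 added, it was 5.19, -4.58, 1.31 and 2.51 in WT 1 to WT 4, and the Srp72+/- libraries 1 to 3 had ratios of -1.32, 2.22 and 2.87. Cd48 thus exceeded Slamf1 in WT 2 and Srp72+/- 1, and Slamf1 exceeded Cd48 in the other 5 libraries. The mean ratio was 1.11 ± 4.12 for WT (SD, n = 4) and 1.26 ± 2.25 for Srp72+/- (SD, n = 3), so the difference of 0.15 was small beside the spread within each genotype. Without WT 2 it was -1.75, and without WT 1 it was 1.51. The ratio of Kit to Flt3 was positive in every library, lowest in WT 2 (4.28) and Srp72+/- 1 (5.14) and highest in Srp72+/- 3 (8.03).

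Summed neutrophil, progenitor and monocyte transcripts ordered the libraries as this ratio did, and erythroid and B lineage transcripts did so only in part. The order of the ratio was that of Cd48, whose CPM alone gave it in 7 of 7 places. Slamf1 CPM alone gave it in 4 of 7. Ranked by the Slamf1 to Cd48 ratio from high to low, the libraries were WT 1, Srp72+/- 3, WT 4, Srp72+/- 2, WT 3, Srp72+/- 1 and WT 2, and the summed CPM of the 11 neutrophil genes, the 20 progenitor genes and the 11 monocyte and macrophage genes stood in the same order from low to high over the 7 libraries. The neutrophil sum was 91.6 CPM in WT 1 and 33882 CPM in WT 2, the range being 91.6 to 33882 CPM in WT and 985 to 10857 CPM in Srp72+/-. The summed progenitor genes, led by Mpo, Elane and Cd93, ran from 483 to 9224 CPM in WT and from 702 to 3063 CPM in Srp72+/-. Mpo (myeloperoxidase) alone reached 5873 CPM in WT 2 and gave the same order of libraries. The progenitor list holds granulocyte genes such as Mpo and Elane and shares Csf1r with the monocyte list. The neutrophil, progenitor and monocyte sums are therefore not independent. The erythroid sum of 12 genes was high in the same pair, with 9591 CPM for WT 2 and 7267 CPM for Srp72+/- 1, against at most 1716 CPM elsewhere, but matched the order of the ratio in 3 of 7 places. The B lineage sum of 12 genes was 10638 CPM in WT 2 and 4429 CPM in Srp72+/- 1, led by Igkc, Ighm and Jchain. It matched the order of the ratio in 4 of 7 places. Only WT 3 was out of order, at 755 CPM below WT 4 (818 CPM) and Srp72+/- 2 (1336 CPM). The part of these cells in the marker differences was not tested.

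**Figure D3:**
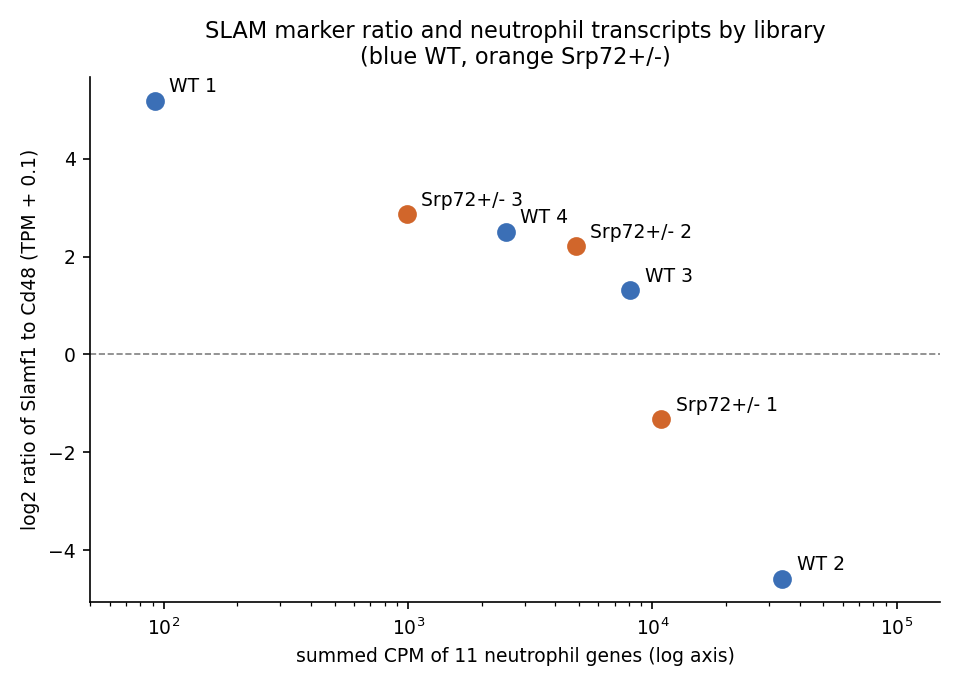
Log2 ratio of Slamf1 to Cd48 (TPM plus 0.1) against the summed CPM of 11 neutrophil genes (log axis), 1 point per library, WT in blue and Srp72+/- in orange. The points fall from WT 1, at 91.6 CPM and a ratio of 5.19, to WT 2, at 33882 CPM and -4.58, with both genotypes along the way. Cd48 CPM alone ranks the libraries as the ratio does.

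The antigens stained to exclude lineage cells showed the same libraries. Of 9 genes, 8 were highest in WT 2, among them Itgam (Mac1) at 726 CPM against 47.2 to 289 CPM elsewhere. Ly6g, of the Gr1 antigens, measured 85.0 CPM in WT 2 and 0.0560 CPM in WT 1. Cd3e, Cd3d and Cd3g of the T cell receptor complex were at most 4.16 CPM in any library. Ptprc, whose B cell form is B220, is carried by all leukocytes and measured 715 CPM in WT 2 and between 219 and 439 CPM elsewhere.

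Endothelial and mast cells share several of the 10 markers, so their defining genes were examined. Of 14 endothelial genes, Sox17 was at 0 in 6 of the 7 libraries, Cdh5, the cadherin of endothelial junctions, was at most 1.25 CPM, and Plvap was at most 0.448 CPM. Cldn5, Flt4, Stab2 and Sox18 reached at most 5.66 CPM. Others of the list were present: Kdr, a VEGF receptor, ran from 1.22 CPM in WT 2 to 20.1 CPM in WT 4, Tek from 1.09 to 45.2 CPM, Egfl7 from 1.22 to 19.9 CPM and Emcn from 0 to 23.0 CPM, each lowest in WT 2. The endothelial sum ran from 57.7 to 623 CPM in WT and from 365 to 636 CPM in Srp72+/-, led by Vwf, Pecam1 and Tie1, which HSCs also carry, and 7 of the 14 genes were lowest in WT 2. Of 10 mast cell and basophil genes, Tpsb2 was at 0 in every library and Cma1 and Tpsab1 were at most 0.0446 CPM, while Hdc (histidine decarboxylase) and Prss34 (a basophil protease) reached 116 and 88.6 CPM in WT 2. The sum, led by Gata2, which HSCs carry, ran from 278 to 362 CPM in WT and from 282 to 527 CPM in Srp72+/-. The part of these cells in the marker differences was not tested.

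Other HSC markers and reporter genes paralleled the members in WT 2. Of 20 reporter and regulator genes, 19 were lower in WT 2 than in each other library, and Gfi1 was higher than in each. Hlf, a stem cell transcription factor used as a reporter, measured 558, 13.2, 408 and 657 CPM in WT 1 to WT 4, and the Srp72+/- libraries measured 272, 388 and 285 CPM. Msi2 (an RNA-binding protein) and Vwf (von Willebrand factor, which marks platelet-biased HSCs) measured 62.4 and 14.1 CPM in WT 2 against at least 207 and 222 CPM elsewhere. Of 26 further surface markers, 16 were lowest and 5 were highest in WT 2. Adgrg1 (GPR56) measured 62.5 CPM in WT 2 against at least 708 CPM elsewhere, while Cd47, a broadly carried leukocyte protein, was highest there at 786 CPM.

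Within the SLAM family, the sort markers had relatives on either side. Of 10 other SLAM receptor and adaptor genes found, 7 were highest in WT 2, including Cd244a, a marker of multipotent progenitors that binds CD48, at 26.3 CPM against at most 6.35 CPM elsewhere, and Ly9 at 17.2 CPM against at most 12.5 CPM. Cd84 was nearly even, at 68.4 CPM in WT 2 and 72.8 to 90.4 CPM in the other libraries. Of the Ly6 family, Ly6e ran from 460 to 1206 CPM with no low value in WT 2 (843 CPM). Among 17 ligands and signalling partners of Kit and Flt3, 6 were highest and 5 were lowest in WT 2. Kitl, the ligand of Kit made by stromal cells, was at most 3.06 CPM in any library.

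No marker passed the genotype comparison over all genes. At an FDR of 0.05, 0 of the 10 markers were called in edgeR's quasi-likelihood test, and 0% of the 20314 genes tested were called. At an unadjusted p below 0.05 there were 0 markers, against 1.8% of all genes, and DESeq2 called 0 markers, against 0.0447% of all genes. The genotypes overlapped for each of the 10 markers, and 3.57% of all genes did not overlap. All 10 markers passed the filter on low counts, with 4 higher and 6 lower fitted values and a median log2 fold change of -0.17, beside -0.01 over all genes tested. The intervals were wide: the 95% confidence interval of the fold, Srp72+/- over WT, was 0.314 to 3.23 for Slamf1, 0.449 to 2.65 for Kit, 0.501 to 1.43 for Cd34 and 0.0815 to 3.96 for Procr.

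WT 2 stood out by the levels of these same markers, lowest for 8 of them and highest for Cd48. Leaving it out therefore had to lower the fitted values of those 8 and raise that of Cd48. The direction of these shifts thus came with the choice of library. Without WT 2 the standard error was smaller for 9 of the 10 markers (for Flt3 it was 0.72 in place of 0.69). Setting aside an extreme library also narrows the spread within WT. The smaller errors, and the unadjusted p-values of this fit, therefore came in part with that choice. The fitted value was lower in Srp72+/- for 8 of the 10 markers, at a median of -0.39 (log2) beside 0.04 over all genes. The exceptions were the negative markers Cd48 (1.496, standard error 1.07) and Flt3 (0.54, standard error 0.72). The sign of Cd48, Slamf1, Kit and Ctnnal1 turned when WT 2 was left out, to values of 1.496, -0.37, -0.21 and -0.11. Procr had a log2 fold change of -1.23 ± 0.48 (SE, edgeR, unadjusted p = 0.0321, adjusted p = 0.9771) and Fgd5 one of -0.76 ± 0.33 (SE, edgeR, unadjusted p = 0.04405, adjusted p = 0.9771). These were the only markers below an unadjusted p of 0.05 there, where 4.84% of all genes were. The genotypes still overlapped for each marker, where 10.1% of all genes did not overlap. Leaving out Srp72+/- 1 as well, the library nearest to WT 2, gave 10 of 10 lower fitted values, a median of -0.23 and 0 markers below an unadjusted p of 0.05. Procr was then at -0.98 and Cd48 at -0.10.

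**Figure D4:**
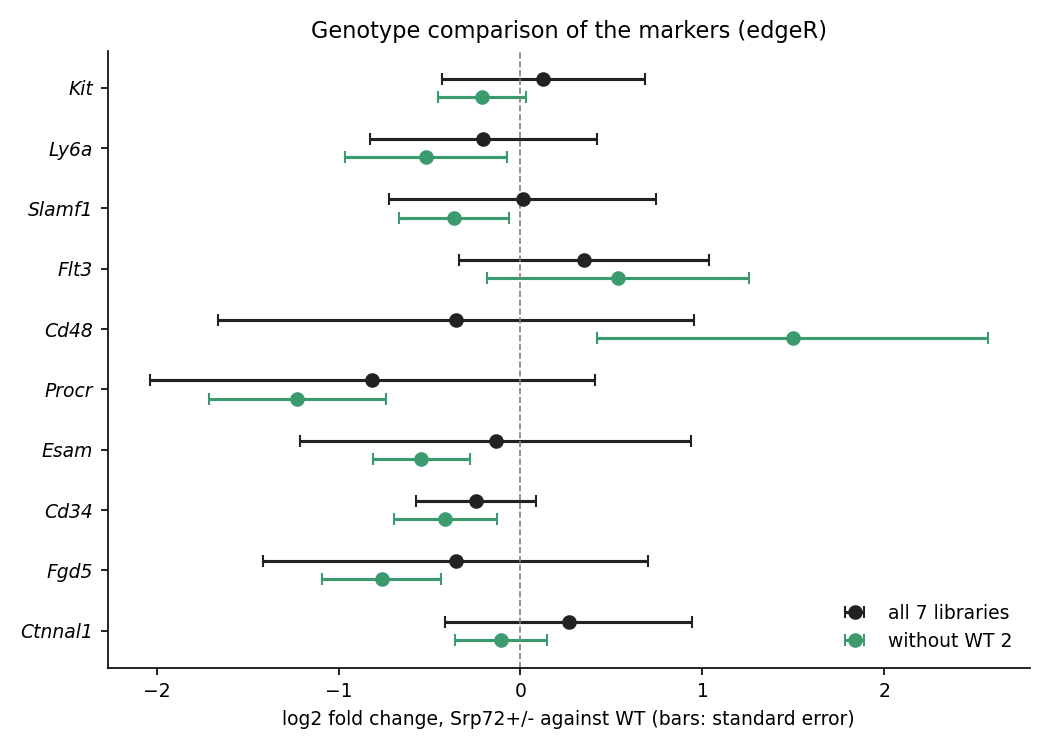
Log2 fold change of each marker, Srp72+/- against WT (edgeR), with bars of 1 standard error, for all 7 libraries (black) and without WT 2 (green). Procr and Fgd5 lie at -0.82 and -0.36 with all libraries and at -1.23 and -0.76 without WT 2, and no marker passed the test in either fit.

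Lists of related genes gave 0 calls as well. Of the 20 reporter genes 8 had higher and 12 lower fitted values, at a median of -0.13 (log2), and of the 26 surface markers 13 were higher and 13 lower, with a median of 0.00460. Of 17 Kit and Flt3 partners 14 had lower fitted values, with a median of -0.20. Of 7 tested SLAM relatives 4 had lower fitted values, with a median of -0.29, and of 9 lineage antigens 7 were lower, with a median of -0.47. In each of these lists 0 members passed the test (edgeR, FDR 0.05), where 0% of all genes did. Without WT 2 the medians were -0.45 for the reporter genes, -0.17 for the surface markers, 0.57 for the SLAM relatives, 0.38 for the lineage antigens and -0.04 for the Kit and Flt3 partners, again with 0 members called.

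The reads of several markers were divided between coding and noncoding transcripts, which changes their levels per length. Over coding transcripts alone, the median TPM over the 7 libraries was 43.6 for Ly6a, 38.9 for Kit, 7.37 for Esam, 7.28 for Slamf1, 6.30 for Cd34, 3.51 for Fgd5, 3.41 for Ctnnal1, 2.75 for Cd48, 1.95 for Procr and 0.416 for Flt3. Kit exceeded Esam in 7 of 7 libraries and Cd34 exceeded Fgd5 in 7 of 7. The other neighbours in this order differed by less than the spread of their log2 ratio between libraries. Summed over all transcripts, Esam carried 17.6% of its TPM in coding transcripts although 92.5% of its reads were assigned to them. The difference lay in a transcript of 216 bases annotated for nonsense-mediated decay, whose short effective length turns few reads into a high TPM. Kit showed the same to a lesser degree, with 51.3% of its TPM and 93.5% of its reads in coding transcripts.

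For Procr the split of reads differed between libraries. Its coding transcript held 68.2% of its reads in WT 1, 63.2% in WT 3 and 49.5% in WT 4, while the Srp72+/- libraries, numbered 1 to 3, had 54.0%, 19.6% and 56.3%. The rest went to a transcript annotated as a retained intron and to a noncoding processed transcript. The coding transcript measured 3.96, 9.34 and 5.70 TPM in WT 1, WT 3 and WT 4, 0.0124 TPM in WT 2 and 1.60, 1.95 and 1.27 TPM in the Srp72+/- libraries. The Srp72+/- libraries thus lay below 3 of the 4 WT libraries and above WT 2. In a fit to coding transcripts only, chosen after the values were seen, Procr had a log2 fold change of -1.54 ± 1.17 (SE) over all libraries (edgeR, adjusted p = 0.9995). Without WT 2 it was -1.96 ± 0.40 (SE, edgeR, unadjusted p = 0.000753, adjusted p = 0.9418). WT 2 was set aside for its levels of these same markers, among them its low Procr. The move to a lower value, the smaller standard error and the smaller unadjusted p-value therefore came with that choice. The split also differed for Fgd5, whose coding transcripts held 47.6% of its reads in WT 4 and 98.6% in Srp72+/- 3. In the coding fit without WT 2, Fgd5 was at -0.27 ± 0.34 (SE, edgeR, unadjusted p = 0.448), beside -0.76 over all its transcripts. In that coding fit 0 markers passed an FDR of 0.05, as 0% of all genes did, and 1 marker was below an unadjusted p of 0.05, as 4.57% of all genes were. In it 2 of the 10 markers, Procr and Esam, had genotypes that did not overlap, where 10.4% of the 13227 genes tested did not overlap.

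Kit and Cd34 each have a pair of coding splice forms of which 1 holds an added stretch. The annotated transcripts of a pair also differ outside it. A Kit form holds 12 bases that the other lacks, at chr5:75639147-75639158 on the plus strand in the coding exons, and the forms are known by the residues these bases add. One Cd34 transcript holds added bases at chr1:194959780-194959935 on the plus strand, and its reading frame ends 15 bases into them, which gives the CD34 form with a shortened cytoplasmic tail. The stretches are shown with up to 30 coding bases on each side (GENCODE M21, GRCm38), with the added bases in capitals, up to the stop codon for Cd34.
Kit form with the added bases: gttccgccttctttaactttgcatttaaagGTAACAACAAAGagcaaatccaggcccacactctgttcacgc
Cd34 form with the added bases: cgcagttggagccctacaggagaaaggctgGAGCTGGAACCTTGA
Of the TPM of the Kit pair, the form with the 12 bases took 64.5%, 81.6%, 61.4% and 62.5% in WT 1 to WT 4, and in the Srp72+/- libraries 70.8%, 61.9% and 70.1%. It thus predominated in every library, with the highest share in WT 2, and the genotype means were 67.5% ± 9.47 (SD, n = 4) and 67.6% ± 4.94 (SD, n = 3). The Cd34 form with the added bases took 34.9%, 16.2%, 21.1% and 25.3% of its pair in WT 1 to WT 4, and in the Srp72+/- libraries 34.7%, 25.7% and 17.7%. The full-length form predominated in every library, and the genotypes overlapped. The shares are estimates of the authors' tool and have no counting interval.

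**Figure D5:**
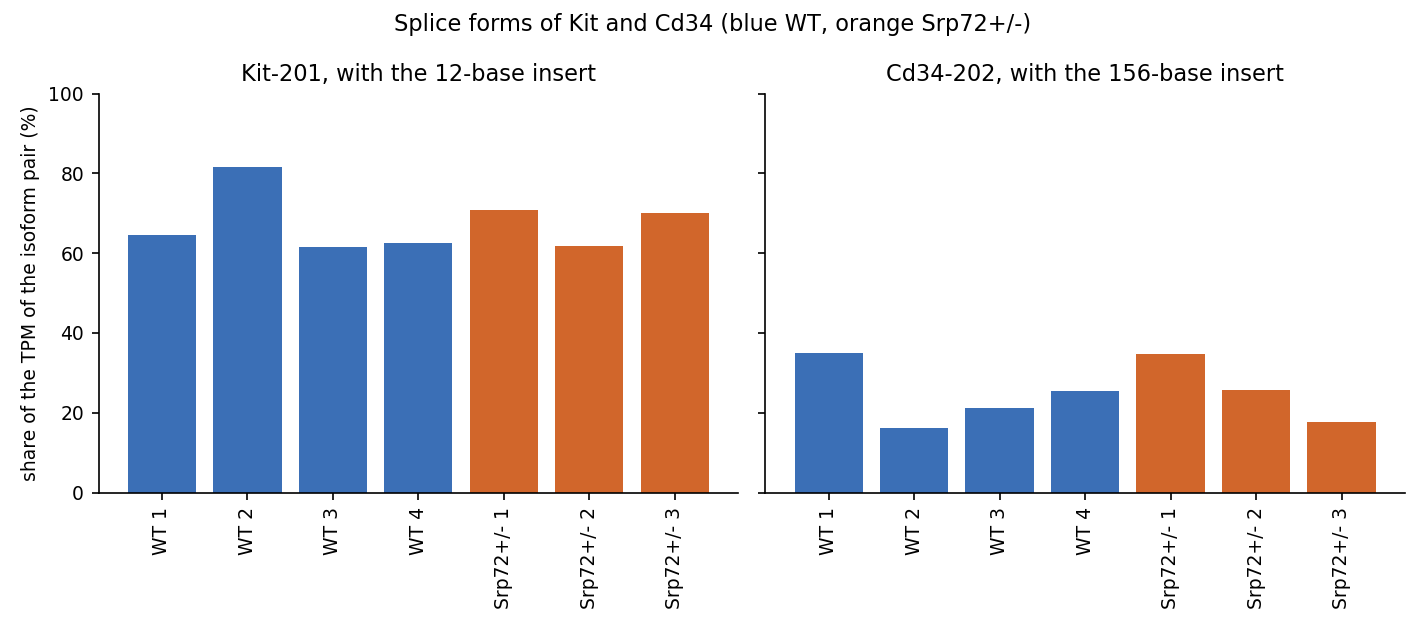
Share of the TPM of each isoform pair taken by the Kit form with the 12 bases (left) and by the Cd34 form with the added bases (right), 1 bar per library, WT in blue and Srp72+/- in orange. The Kit form runs from 61.4% to 81.6% and the Cd34 form from 16.2% to 34.9%.

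The genes whose levels ran most like a marker over the 7 libraries were sought among 10132 protein-coding genes with a mean of at least 5 CPM, predicted gene models left out, by the root mean square difference in centred log2 CPM. For Slamf1 they were Plod2 (0.15), Fgf11 (0.17) and Ifi44 (0.17), for Procr they were Clip3 (0.31), Trim47 (0.40) and Plxdc2 (0.43), and for Cd48 they were Igsf6 (0.17), St3gal5 (0.28) and Lilr4b (0.33). Plod2 measured 24.2, 1.22, 18.3 and 19.7 CPM in WT 1 to WT 4, and Igsf6 ran from 3.36 CPM in WT 1 to 270 CPM in WT 2. With 7 libraries and 1 that stands apart, this likeness is a description.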

How the data were processed

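Per the labels' protocols, RNA of the sorted LT-HSCs was isolated with a Qiagen Mini kit, and the NuGEN Ovation kit and the Illumina TruSeq V2 kit served for amplification and libraries. The deposited tables hold estimated counts per transcript (expected counts) and TPM values per transcript, made by the authors with Salmon 0.12.0 per the submitters' processing notes, which name mm10 and GRCm38.p6. For the transcript release, the strand setting and the options, the sources used here give nothing.

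Of 136288 transcripts 136176 matched GENCODE M21. Counts were summed per gene and rounded. After filterByExpr (minimum count 10, minimum total 15), 20314 genes were compared with edgeR 4.0.16 in R 4.3.3. The settings were TMM, a robust quasi-likelihood test, no covariate, Benjamini-Hochberg adjustment and a threshold of 0.05. The fit was tested on simulated data, where recovery of changed genes was required only at a spread between libraries smaller than in these data. That test therefore does not measure sensitivity here. Effective lengths in the deposited tables served only for a length offset. Ratios used TPM with 0.1 added, log2 CPM a prior count of 2. The markers, lists and tests were chosen with earlier results of these data known. All 10 markers were named, from most lists the 3 genes with the highest mean CPM, besides defining markers chosen after their values were seen. Some genes of these lists are not reported here. Nothing says whether library preparation was shared. Alternatives were DESeq2 1.42.0, limma 3.58.1 (voom), RLE or upper-quartile factors, other filters, only protein-coding genes, an offset for length, an FDR of 0.1, a fit without robust estimation, a replicate block, libraries left out, and, added after seeing the data, coding transcripts only.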

Additional observations from a re-analysis of the deposited data

Results flagged for a closer look

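Among the 4 WT libraries, 6 markers had a library whose gap to its nearest neighbour took more of the group's whole log2 range than 0.829, Dixon's 95% critical value for 4 samples, and in each case it was WT 2. The ratio was 0.936 for Slamf1, 0.897 for Ly6a, 0.855 for Procr, 0.911 for Esam, 0.875 for Fgd5 and 0.834 for Ctnnal1, with 0.1 CPM added before taking the log2. Kit, at 0.811 and also lowest in WT 2, was just under the critical value, and Cd48, Flt3 and Cd34 were at 0.423, 0.460 and 0.243. Chance flags about 1 in 20 such groups, and the markers are not independent of each other, since they come from the same 4 libraries. The share of all genes flagged in this way was not computed. The count of 6 therefore does not set the markers apart from other genes.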

How the results depend on the processing

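Under all 21 alternatives 0 of the 10 markers were called. Over all genes 0 were called except with DESeq2 (9), and with libraries left out in turn the count ran from 0 to 1. That 1 was the pseudogene Gm28439, called without WT 4 (edgeR, adjusted p = 0.0267), which was at 0 in WT 4 and in the Srp72+/- libraries and between 61.8 and 85.9 CPM in WT 1 to WT 3. The median log2 fold change of the markers, -0.17 as reported, ran from -0.39 (without WT 2) to 0.11 (without WT 4) with libraries left out in turn, and the cause was not tested. Procr and Cd34 kept a negative sign under each of the 21 alternatives (-1.96 to -0.06 and -0.45 to -0.03), and Slamf1 changed sign under 9 of them. The Slamf1 to Cd48 difference ran from -1.75 to 1.51 with libraries left out in turn, and was -0.46 without both WT 2 and Srp72+/- 1. Both genotypes carry replicate numbers, but same-numbered libraries did not deviate together (r = -0.32, -0.16 and 0.0018). No WT library correlated best with its own number. WT 2 and Srp72+/- 1, which stood apart, carry different numbers and weigh on these correlations, so the check cannot show or exclude a pairing. With the replicate block 0 genes were called, the count at an unadjusted p below 0.05 was 139 in place of 365, and the median of the markers was 0.29. Depth limits Procr and Esam in WT 2, at 1 and 3 reads, and Cd48 in WT 1, at 9 reads.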

Other observations

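Of 184 tested genes in the lists set beside the markers, 3 (1.63%) had genotypes that did not overlap over all 7 libraries, a share below the 3.57% of all tested genes, and they are given as values only, named after these were seen. Slamf8, a SLAM receptor of macrophages, measured 2.97, 1.28, 1.53 and 2.25 CPM in WT 1 to WT 4, and the Srp72+/- libraries measured 0.424, 0.535 and 1.001 CPM (log2 fold change -1.60, edgeR adjusted p = 0.9998). Gab2, an adaptor downstream of Kit, measured 39.1 to 45.2 CPM in WT and 31.2 to 36.6 CPM in Srp72+/- (log2 fold change -0.35, edgeR adjusted p = 0.9998). Col1a2, a collagen chain of stromal cells, measured 9.46 to 33.9 CPM in WT and 5.88 to 9.27 CPM in Srp72+/- (log2 fold change -1.58, edgeR adjusted p = 0.9998).

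Of the 10 dendritic cell genes, 5 were highest and 2 were lowest in Srp72+/- 3, the library with the lowest Flt3 level. Named after their values were seen, Cd74, the invariant chain of MHC class II, measured 307 CPM there against 45.1 to 169 CPM in the other libraries, and H2-Aa measured 227 CPM against 13.1 to 65.2 CPM. Clec9a, Itgax and Siglech, carried by dendritic cell subsets, measured 5.49, 0.182 and 0.485 CPM there. The same library had the highest Ly6a level, 89.2 CPM.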
